A study of Mus musculus with 15 samples.

Results

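Atp1b1 encodes the beta-1 subunit of the sodium pump, and Fxyd1 encodes phospholemman, a small membrane protein that binds the pump in heart muscle. Both were taken as genes of sodium handling by the ventricle. The members were all probe sets that the platform annotation pairs with only one of these symbols, which gave 3 probe sets of the 12422 non-control probe sets in the table. They stand for 2 genes of the 8251 with a single symbol. Atp1b1 had 2 probe sets, called the brighter and the dimmer one here, and Fxyd1 had 1. The catalytic alpha subunits of the pump were not analysed here.

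The sodium pump exports sodium and imports potassium at the cost of ATP. It is built from a catalytic alpha subunit and a glycosylated beta subunit that is needed to bring the complex to the cell surface. Phospholemman belongs to the FXYD family, binds the pump and holds back its activity, and this brake is released when phospholemman is phosphorylated by protein kinases A and C. In heart muscle the pump sets the sodium gradient that the sodium-calcium exchanger uses to remove calcium from the cell.

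The series studied hypertrophy of the mouse heart under pressure overload, with RNA of the left ventricle hybridised to 15 arrays, one colour each. The labels give 3 female sham controls (numbered 1 to 3), 6 male sham controls (4 to 9), 3 female hearts with the operation named TAC (1 to 3) and 3 male hearts with TAC (4 to 6). TAC is the usual abbreviation of transverse aortic constriction, which narrows the aorta and raises the load on the left ventricle. The sources used here do not give strain, age or time after the operation. The labels do not say whether each array stands for a separate animal, so a p-value here reflects the spread between arrays, which may be technical.

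The arrays had median intensities of 21.3 to 26.7, and their number limits the precision. Heart muscle markers were high on all arrays, with a summed intensity of 30092 to 37364 for the 8 measured of 9 listed. The summed intensity of 7 fibroblast markers, none of them listed at 0, was 1172 to 1574 on sham arrays and 1492 to 2290 on TAC arrays. Averaged over the sexes, 4 of the 6 tested fibroblast markers were higher and 2 lower in TAC hearts. Of the 8 heart muscle markers, 2 were higher and 6 lower. In both lists limma called 0 at an adjusted p under 0.05. The part of these markers in the results was not tested. Nppa, the gene of atrial natriuretic peptide and a standard marker of cardiac load, was 111 to 307 on the 9 sham arrays and 1045 to 2549 on the 6 TAC arrays. Acta1, the gene of skeletal alpha-actin and another such marker, was 544 to 1003 and 2463 to 4042. The sham and TAC ranges of both did not overlap, and how often ranges are apart over all probe sets was not counted. For Nppa the log2 difference averaged over the sexes was 2.83 (limma adjusted p = 1.29e-06). Female TAC 1, female TAC 2 and male sham 7 correlated least with the other arrays, with a mean Pearson r across probe sets of 0.936, 0.938 and 0.940 against 0.945 to 0.957 for the others. In bulk ventricle, fewer cells of a type and less RNA per cell cannot be told apart.

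Neither Atp1b1 nor Fxyd1 passed the test in any comparison of the design. The question was whether the RNA of a pump subunit and of its regulator differed between loaded and sham hearts, in each sex and between the sexes. Fxyd1 was measured more precisely than Atp1b1, with a TAC-to-sham ratio of 1.05 and a 95% interval of 0.917 to 1.20. The 2 probe sets of Atp1b1 gave ratios of 1.08 and 1.06 with wider intervals. Within each sex they disagreed in sign. The brighter one had log2 differences of -0.13 in females and 0.36 in males, and the dimmer one, near the floor, 0.38 and -0.21. Of 18 tests on the 3 probe sets in 6 contrasts, limma called 0 at an adjusted p under 0.05, and 2 had an unadjusted p under 0.05. Over the whole table limma called 24 of 7453 tested probe sets in the averaged contrast, which is 0.322%. The shares were 0.0805% in females and 0.134% in males. In the 3 contrasts between the sexes limma called 0 probe sets (0.0%), while 2.56% had an unadjusted p under 0.05 for the difference of the TAC effects, 4.71% between sham hearts and 4.21% between TAC hearts.

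Fxyd1 lay within a narrow band on all arrays. Female sham hearts had intensities of 812, 735 and 771, and male sham hearts ran from 654 through a median of 753 to 869.7. Female TAC hearts had 787, 805 and 749.6, and male TAC hearts had 756, 906 and 838. The sham and TAC ranges overlapped in both sexes. The highest value belonged to male TAC 5 and the lowest to male sham 4.

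Fxyd1 averaged 773 ± 38.9 (SD, n = 3) over female sham hearts, and the female TAC mean was 780.4 ± 28.2 (SD, n = 3). Male sham hearts averaged 766 ± 84.7 (SD, n = 6), and the male TAC mean was 834 ± 75.1 (SD, n = 3). The log2 difference averaged over the sexes was 0.07 ± 0.09 (SE), with a 95% interval of -0.13 to 0.27 and a limma adjusted p of 0.910, and 5 of 6 TAC arrays were above the median of the sham arrays of the same sex. An exact two-sided permutation test that exchanged sham and TAC arrays of the same sex, with 1680 arrangements, gave p = 0.254 (adjusted p = 0.663 over 15 such tests). Without the 3 least correlated arrays the averaged log2 difference was 0.04.

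Within females the log2 difference of Fxyd1 was 0.02 ± 0.14 (SE) and within males 0.12 ± 0.12 (SE), with limma adjusted p of 1.00 and 0.951. The 95% intervals were -0.28 to 0.31 and -0.13 to 0.38. The exact permutation p was 0.800 in females, where 3 against 3 arrays cannot go below 0.100, and 0.286 in males. The TAC effect in females minus that in males was -0.11 ± 0.19 (SE) on the log2 scale, and limma gave an adjusted p of 1.00. Female and male sham hearts differed by 0.02 ± 0.12 (SE) and female and male TAC hearts by -0.09 ± 0.14 (SE), female minus male, neither of which passed.

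**Figure D1:**
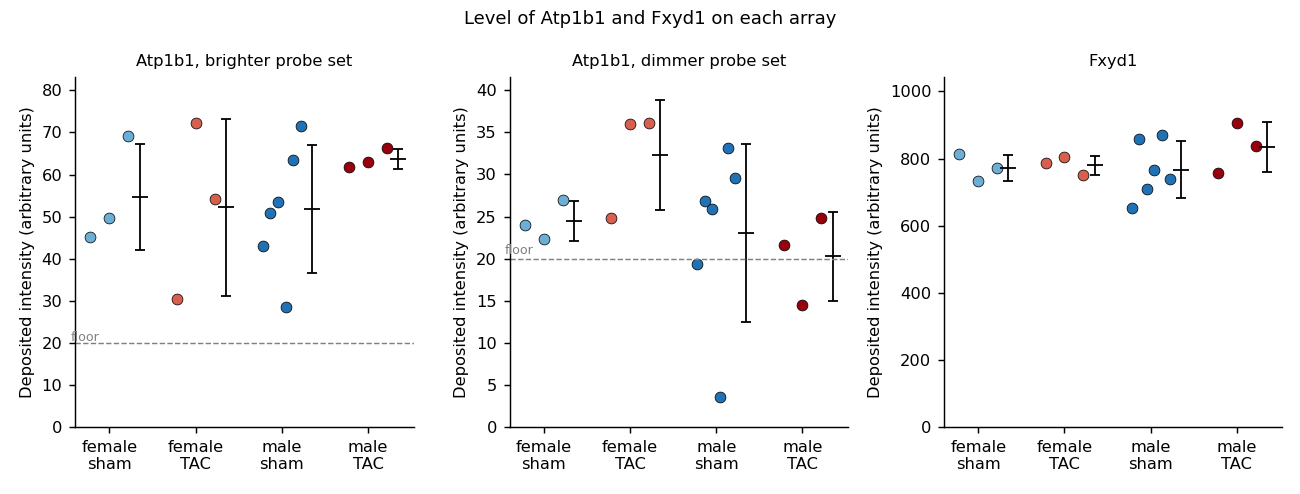
Deposited intensity (arbitrary units, linear axes from 0) of the 3 member probe sets on each of 15 arrays, by sex and operation. Points are arrays, bars are mean ± SD, and the dashed line is the floor of 20. Fxyd1 ran from 654 to 906 with overlapping groups, and male sham 7 had the lowest value of both Atp1b1 probe sets.

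The spread of Fxyd1 between arrays of a group was 0.13 on the log2 scale (residual SD over the 4 groups). Only 4.86% of tested probe sets had a smaller residual SD, and the median over all of them was 0.24. Fxyd1 averaged 784 over all arrays, and the ranking was not limited to probe sets of like brightness. Over the 15 arrays its coefficient of variation was 8.45%. For the brighter Atp1b1 probe set the residual SD was 0.44, above that of 93.9% of tested probe sets. For the dimmer one it was 0.26, where the floor compressed the lowest values.

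Atp1b1 was measured by a brighter probe set, whose name carries the f suffix of probes that similar transcripts can share, and by a dimmer one. With the brighter probe set, female sham hearts had intensities of 45.3, 49.8 and 69.1, and male sham hearts ran from 28.6 through a median of 52.1 to 71.4. Female TAC hearts had 30.4, 72.3 and 54.2, and male TAC hearts had 61.7, 63.1 and 66.3. The 3 male TAC arrays lay close together and inside the upper part of the male sham range. Female TAC 1 and male sham 7, both among the 3 arrays that correlated least with the rest, were the lowest of all arrays.

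This probe set averaged 54.7 ± 12.7 (SD, n = 3) over female sham hearts, and the female TAC mean was 52.3 ± 21.0 (SD, n = 3). Male sham hearts averaged 51.8 ± 15.1 (SD, n = 6), and the male TAC mean was 63.7 ± 2.36 (SD, n = 3). Averaged over the sexes the log2 difference was 0.11 ± 0.21 (SE), with a 95% interval of -0.32 to 0.55 and a limma adjusted p of 0.934. This interval spans ratios from 0.801 to 1.46. The exact permutation p was 0.651. Without female TAC 1 the log2 difference was 0.29, without female TAC 2 it was -0.025, and without the 3 least correlated arrays it was 0.10.

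Within females the log2 difference was -0.13 ± 0.31 (SE) and within males 0.36 ± 0.27 (SE), with limma adjusted p of 1.00 and 0.951. In males all 3 TAC arrays were above the sham median, and in females 2 of 3 were. The difference between the effects, female minus male, was -0.48 ± 0.41 (SE) with a limma adjusted p of 1.00, and -0.19 without the 3 least correlated arrays. The female value was 0.22 without female TAC 1 and 0.052 without female sham 3, and the male value was 0.20 without male sham 7.

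With the dimmer probe set, female sham hearts had intensities of 24.0, 22.4 and 27.0, and male sham hearts ran from 3.62 through a median of 26.3 to 33.1. Female TAC hearts had 24.8, 36.0 and 36.1, and male TAC hearts had 21.6, 14.5 and 24.8. Of the 15 arrays, 3 were below the floor of 20 and were set to it before the test, male sham 4, male sham 7 and male TAC 5. All 3 female TAC arrays were above the female sham median and the ranges overlapped, while all 3 male TAC arrays were below the male sham median.

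The dimmer probe set averaged 24.5 ± 2.35 (SD, n = 3) over female sham hearts, and the female TAC mean was 32.3 ± 6.49 (SD, n = 3). Male sham hearts averaged 23.0 ± 10.5 (SD, n = 6), and the male TAC mean was 20.3 ± 5.26 (SD, n = 3). The log2 difference was 0.38 ± 0.20 (SE) in females and -0.21 ± 0.18 (SE) in males, with limma adjusted p of 1.00 and 0.951. With an offset of 20 added in place of the floor these were 0.23 and -0.06, and with a lower floor, at the 10th percentile of the values above 0, the male value was -0.02. Each of the 3 female TAC arrays was above the female sham array of the same number. In males, TAC 4 was above sham 4, while TAC 5 and TAC 6 were below sham 5 and sham 6. Whether the numbers mark pairs was not tested. With the number as a replicate block the female difference was 0.38 ± 0.17 (SE, limma adjusted p = 0.851). The averaged difference was 0.09 ± 0.13 (SE), with a 95% interval of -0.19 to 0.37, a limma adjusted p of 0.919 and an exact permutation p of 0.575. The TAC effect in females minus that in males was 0.59 ± 0.27 (SE), with an unadjusted p of 0.0418 and a limma adjusted p of 1.00. Female minus male TAC hearts gave 0.53 ± 0.20 (SE), with an unadjusted p of 0.0182 and a limma adjusted p of 0.999. The brighter Atp1b1 probe set had the opposite sign in both contrasts. The dimmer probe set gave 0.29 and 0.38 with the offset, 0.40 and 0.68 with the lower floor and 0.84 and 0.71 without the 3 least correlated arrays, none of them called.

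**Figure D2:**
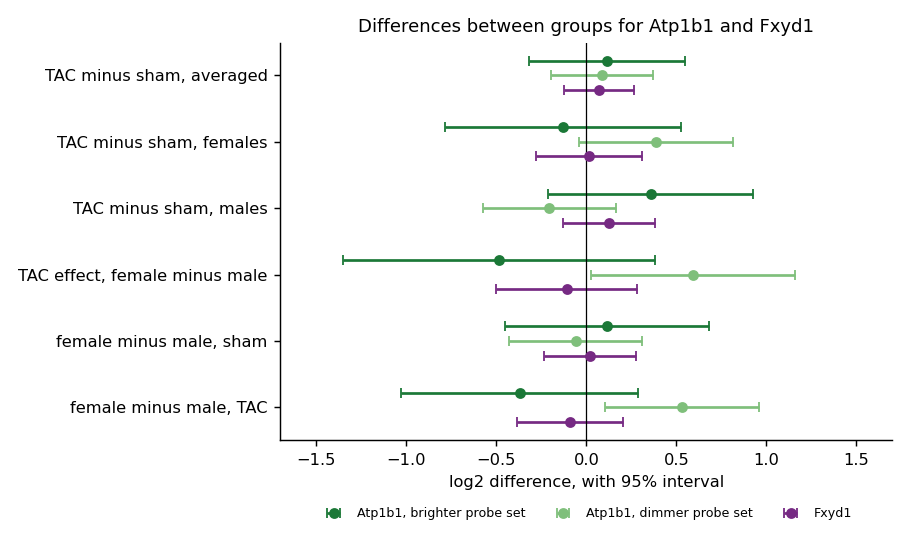
Log2 differences (points) with 95% intervals (bars) from limma for the 3 member probe sets in the 6 contrasts, on a log2 axis centred on 0. No difference passed the adjusted threshold, the intervals of Fxyd1 were narrower than those of both Atp1b1 probe sets, and the Atp1b1 probe sets had opposite signs within females and within males.

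The Atp1b1 probe sets, whose TAC effects differed in sign within each sex, were correlated across the 9 sham arrays by rank. Pearson r of their log2 values was 0.826 (exact permutation p = 0.00519, adjusted p = 0.0622 over 12 relations) and did not pass, while Spearman rho was 0.912 (exact permutation p = 0.00143, adjusted p = 0.0172). Pearson r was 0.780 without the 2 arrays farthest from the median and 0.869 in the 6 male sham arrays. Across the 6 TAC arrays r was 0.110 (exact permutation p = 0.867) and rho was -0.14 (exact permutation p = 0.803), and without the 2 farthest arrays r was -0.79. With the mean of each sex removed, r was 0.857 in sham and 0.868 in TAC arrays, given as a description.

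**Figure D3:**
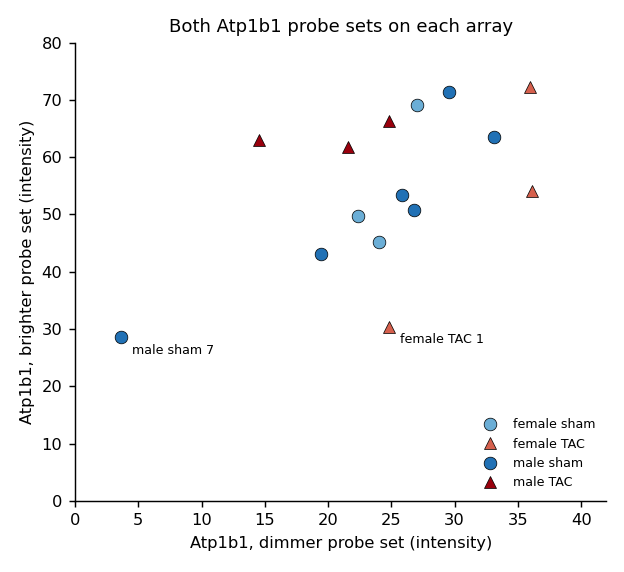
Deposited intensity of the brighter Atp1b1 probe set (vertical axis) against the dimmer one (horizontal axis) on 15 arrays, circles for sham and triangles for TAC. Male sham 7 was lowest on both, at 28.6 and 3.62, and the male TAC arrays lay to the left of female TAC 2 and female TAC 3.

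Atp1b1 and Fxyd1 were also compared with each other, as the log2 ratio of Fxyd1 to Atp1b1 within each array. Averaged over the sexes, this ratio differed between TAC and sham hearts by -0.04 with the brighter Atp1b1 probe set and by -0.02 with the dimmer one (exact permutation p = 0.862 and 0.902). In males the ratio to the dimmer probe set differed by 0.33 (exact permutation p = 0.0833, adjusted p = 0.663), with 3 of the 9 male values of that probe set at the floor. With the offset in place of the floor it differed by 0.18 (exact permutation p = 0.595). An unequal change of the 2 genes was thus not shown. Across sham arrays, Pearson r of Fxyd1 was 0.175 with the brighter and 0.596 with the dimmer Atp1b1 probe set, neither of which passed (exact permutation p = 0.655 and 0.0895, adjusted p = 0.786 and 0.537). Across the 6 TAC arrays the values were 0.282 and -0.49 (exact permutation p = 0.560 and 0.324, adjusted p = 0.786 and 0.777). For the same pairs, Spearman rho was 0.233 and 0.569 in sham arrays (exact permutation p = 0.552 and 0.115) and 0.600 and -0.60 in TAC arrays (exact permutation p = 0.242 for both). Without the 2 farthest arrays r was 0.425 and 0.450 in sham and 0.645 and -0.41 in TAC arrays. With the mean of each sex removed it was 0.168 and 0.610 in sham and 0.0782 and -0.18 in TAC arrays, given as a description.

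Neither gene had a correlation with Nppa that passed within an operation. In sham arrays, Pearson r of Fxyd1 with Nppa was -0.18 and Spearman rho 0.167 (exact permutation p = 0.650 and 0.678), and r was -0.66 without the 2 farthest arrays. In TAC arrays Fxyd1 had r of 0.296 and rho of 0.314 (exact permutation p = 0.564 for both), and r was 0.310 without those 2. The brighter Atp1b1 probe set had r of 0.481 and rho of 0.550 with Nppa in sham arrays (exact permutation p = 0.192 and 0.133). In TAC arrays it had r of 0.202 and rho of 0.371 (exact permutation p = 0.774 and 0.497). Without the 2 farthest arrays its r was 0.236 in sham and -0.46 in TAC arrays. For the dimmer probe set r was 0.314 and rho 0.561 in sham arrays (exact permutation p = 0.416 and 0.122), and 0.559 and 0.314 in TAC arrays (exact permutation p = 0.271 and 0.564). Without the 2 farthest arrays its r was 0.121 and -0.43. With the mean of each sex removed, r with Nppa in TAC arrays was 0.761 for Fxyd1, 0.589 for the brighter and 0.259 for the dimmer probe set, and in sham arrays -0.22, 0.467 and 0.388, given as a description. The smallest adjusted p among the relations with Nppa was 0.767 for Pearson r and 0.398 for Spearman rho.

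The probe sets most like each gene were found by the Pearson r of log2 values over the 15 arrays. Both values of a point come from the same array, with its RNA and hybridisation. For Atp1b1, with the brighter probe set, they were those of Ewsr1 (r = 0.928), Dsp, the gene of desmoplakin (0.914), Lmna, the gene of lamins A and C (0.893), Ccl6 (0.891) and Fam162a (0.886). With group means removed these r values were 0.883 to 0.966. For Fxyd1 they were Hcfc1r1 (r = 0.827), Zeb1 (0.794), Clptm1l (0.792), Frmd6 (0.776) and Ccnd1 (0.771), and 0.759 to 0.819 with group means removed. None of these 10 genes passed in the averaged contrast, where the smallest limma adjusted p was 0.762. They were picked on the same arrays for following members that were not called, so this is no separate result.

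The other measured beta subunits did not pass either. Atp1b2, the beta-2 subunit, had intensities of 74.2, 73.2 and 79.2 in female sham hearts and 57.1 to 84.1, with a median of 78.3, in male sham hearts. It had 89.0, 72.6 and 86.7 in female TAC hearts and 74.6, 80.3 and 80.5 in male TAC hearts. The groups overlapped, and the averaged log2 difference was 0.13 ± 0.11 (SE, limma adjusted p = 0.862). Its second probe set was below the floor on all arrays.

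Atp1b3, the beta-3 subunit, had 80.4, 77.9 and 87.7 in female sham hearts and 59.3 to 93.2, with a median of 77.8, in male sham hearts. It had 48.1, 98.5 and 77.2 in female TAC hearts and 63.9, 73.8 and 81.3 in male TAC hearts. Female TAC 1 was the lowest and female TAC 2 the highest of all 15 arrays. The averaged log2 difference was -0.13 ± 0.15 (SE, limma adjusted p = 0.884). It was 0.0089 without female TAC 1 and -0.25 without female TAC 2. As with the brighter Atp1b1 probe set, female TAC 1 had the lowest and female TAC 2 the highest value of the female arrays. Their median intensities over the whole array were also the lowest (21.3) and the highest (26.7) of all arrays, and array level was kept. Its part in this order was not tested.

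Of the other FXYD family genes, which encode relatives of phospholemman, Fxyd3 and Fxyd5 were tested. Fxyd5, the gene of dysadherin, had 8.63, 18.7 and 31.4 in female sham hearts and 35.7, 39.5 and 35.6 in female TAC hearts. These ranges did not overlap, but 8.63 and 18.7 were below the floor of 20. How often such ranges are apart over all probe sets was not counted. In male sham hearts Fxyd5 was listed at 0 on male sham 7 and ran to 32.3 with a median of 23.4. In male TAC hearts it had 18.1, 41.6 and 49.2. Its averaged log2 difference was 0.58 ± 0.19 (SE), with an unadjusted p of 0.00747 and a limma adjusted p of 0.381. The floor of 20 replaced 4 of 9 sham values and 1 of 6 TAC values. With the lower floor the difference was 0.98 ± 0.41 (SE, limma unadjusted p = 0.0287), and with the offset 0.53 ± 0.20 (SE). It was 0.45 without male TAC 6 and 0.78 without male TAC 4, where it did not pass either (limma adjusted p = 0.0512).

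Fxyd3 had 29.2, 49.1 and 49.3 in female sham hearts and 34.1, 57.2 and 35.9 in female TAC hearts. Male sham hearts ran from 24.8 to 33.3, and male TAC hearts had 37.2, 21.9 and 33.1. The groups overlapped in both sexes. Its averaged log2 difference was 0.00 ± 0.16 (SE, limma adjusted p = 0.999). Fxyd2, which encodes the gamma subunit of the kidney pump, was below the floor on all arrays, and Fxyd7 on 14 of 15.

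The wider pathway was read from 5 lists of 50 genes, of which 31 were on the array and 25 were tested. Each gene was read from its brightest probe set only. In the averaged contrast limma called 0 of the 25, and 3 had an unadjusted p under 0.05, as had 7.51% of all tested probe sets. The difference was above 0 for 14 (56.0%) and below 0 for 11, and it was above 0 for 41.8% of all tested probe sets. The median was 0.00, against -0.03 over all tested probe sets. The lists by themselves had 2 tested pump subunits, 2 FXYD genes, 3 genes of sodium transport, 11 kinases, phosphatases and anchors, and 7 membrane partners.

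Among sodium transport genes the smallest p was that of Slc8a1, the sodium-calcium exchanger of heart muscle. It had intensities of 214, 251 and 231 in female sham hearts and 171 to 269, with a median of 226, in male sham hearts. It had 172, 236 and 189 in female TAC hearts and 118, 162 and 218 in male TAC hearts. The groups overlapped, and the log2 difference was -0.33 ± 0.15 (SE), with an unadjusted p of 0.0406 and a limma adjusted p of 0.613. Without male TAC 4 it was -0.22, and without male TAC 6 it was -0.44. Its other probe sets were too dim to be tested. Slc9a3r1 and Slc9a3r2, scaffold proteins of sodium-proton exchangers, had log2 differences of 0.18 ± 0.10 and -0.10 ± 0.14 (SE).

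Among kinases, phosphatases and anchors, by the brightest probe set of each gene, Prkca, the gene of protein kinase C alpha, had the smallest p. Its log2 difference was 0.33 ± 0.13 (SE), with an unadjusted p of 0.0212 and a limma adjusted p of 0.531. It was 0.13 without the 3 least correlated arrays and 0.42 without female TAC 3. The other smallest p values belonged to Ppp2ca, a catalytic subunit of protein phosphatase 2A, with 0.20 ± 0.10 (SE), and Akap1, an anchor protein of protein kinase A, with -0.29 ± 0.19 (SE). The Akap1 difference was -0.67 in females and 0.09 in males. Averaged, it was -0.44 without female TAC 3 and -0.04 without female TAC 1, which had the lowest Akap1 intensity of all arrays, 126. The other probe sets of Akap1 gave averaged differences of -0.28 ± 0.11 (SE, unadjusted p = 0.0206) and -0.04 ± 0.12 (SE). Of the membrane partners, the smallest p values were those of Sptan1, Sptbn1 and Add1. Sptan1 and Sptbn1, the genes of alpha and beta spectrin of the membrane skeleton, had 0.16 ± 0.13 and 0.17 ± 0.15 (SE). Add1, the gene of adducin 1, had 0.18 ± 0.19 (SE), which was 0.035 without female TAC 2 and 0.29 without female TAC 3. None of these passed the adjusted threshold.

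**Figure D4:**
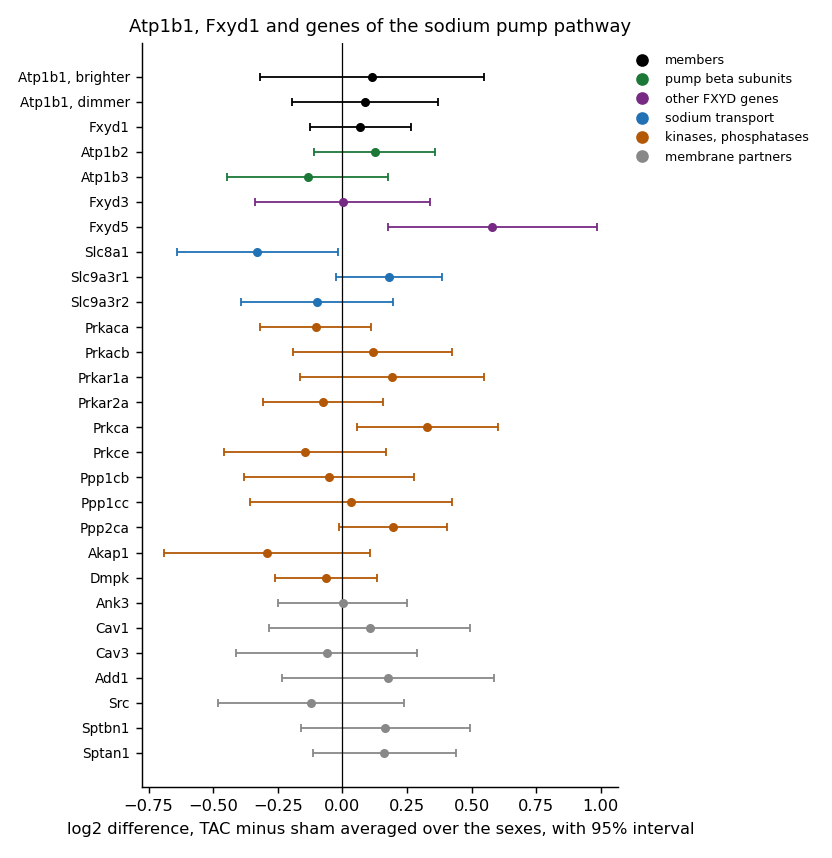
Log2 difference between TAC and sham hearts averaged over the sexes (points) with 95% intervals (bars) for the 3 member probe sets and the 25 tested pathway genes, coloured by list. No gene passed the adjusted threshold, and Fxyd5, Prkca and Slc8a1 had intervals that left out 0.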

How the data were processed

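The authors deposited one linear intensity per probe set and array, in arbitrary units. Their software, background correction and scaling were not given in the sources used here. Array medians lay within a ratio of 1.26, and that level was kept. Values were floored at 20, above the pooled 30th percentile of 11.9, and log2 was taken, which compresses dim genes. Per array 42.4% to 48.4% of probe sets lay below the floor. After 66 control probe sets were left out, the 60% with the highest mean were tested, 7453 of 12422.

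Symbols came from the platform annotation, updated by Entrez number through a RefSeq table of assembly GRCm38.p6 (10833 probe sets with 1 symbol, 396 with several, 1193 with none, 10817 matched). Where a gene had several probe sets, the brightest stood for it in lists. A model with 4 group means and no replicate block used all 15 arrays (limma 3.58.1, lmFit and eBayes, R 4.3.3). The Benjamini-Hochberg adjustment covered every tested probe set, and calls were made at 0.05. Single values were tested by exact permutation within sex. The titles share the numbers 1 to 6 between operations. Deviations of same-numbered arrays from their group means correlated by 0.244, 0.270 and 0.117 in females and by 0.0641, -0.08 and 0.0136 in males. Arrays of unlike number were not compared in this way, so whether the numbers mark pairs was not tested. The block was an alternative. The fit was tested on simulated data.

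The genes named were both members, the other tested pump and FXYD genes, in each other pathway list those that passed and up to 3 of smallest p, and the 5 probe sets most like each member. The members, lists and tests were chosen with earlier results of these data known. The alternatives varied the normalization, floor, filter, variance model, weights, model, replicate block and arrays.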

Additional observations from a re-analysis of the deposited data

How the results depend on the processing

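No member probe set was called in any of 183 values under other settings (smallest limma adjusted p = 0.105, with array weights, for the dimmer Atp1b1 probe set between female and male TAC hearts) or in 270 values with 1 array left out (smallest 0.512), and 7 and 12 of these changed sign. Over all of them the averaged log2 difference was 0.04 to 0.13 for Fxyd1, 0.04 to 0.18 for the dimmer and -0.025 to 0.29 for the brighter Atp1b1 probe set. The stricter filter removed the dimmer probe set, so it has no value there. Between sham hearts the dimmer probe set gave 0.28 with the floor at the 10th percentile and 0.092 with an offset, and Fxyd1 gave -0.034 with median centring. In females Fxyd1 gave -0.024 with array weights. A setting added after seeing the data left out female TAC 1, female TAC 2 and male sham 7, which left female TAC with 1 array assumed to vary like the others. It gave -0.042 for Fxyd1 and 0.010 for the brighter probe set in females, and -0.047 for the brighter probe set between sham hearts. With 1 array left out, the brighter probe set ranged from -0.025 to 0.287 averaged, -0.41 to 0.22 in females and -0.067 to 0.237 between sham hearts. Fxyd1 ranged from -0.021 to 0.052 in females and -0.027 to 0.056 between sham hearts, and the dimmer probe set from -0.134 to 0.016 between sham hearts. Without the 2 farthest TAC arrays, Pearson r changed sign to -0.79 between the Atp1b1 probe sets and to -0.46 and -0.43 between Nppa and the brighter and dimmer one. The cause was not tested.

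With the replicate block the averaged log2 differences were 0.10 for Fxyd1, 0.13 for the brighter and 0.13 for the dimmer Atp1b1 probe set, with no call of a member in any contrast it could fit, and the block lowered the calls over the table to 8 averaged, 3 in females and 3 in males.

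The 24 calls of the averaged contrast were 45 with quantile normalization or median centring, 12 with the lower floor, 13 without the filter, 68 with array weights and 14 without the 3 least correlated arrays, and 12 to 29 with 1 array left out. The 6 female calls were 10 with trended and robust eBayes, 36 with array weights and 2 to 8 with 1 array left out. The 10 male calls were 18 with median centring, 3 with the lower floor, 6 with an offset or without the 3 arrays, 4 without the filter, 16 with trended and robust eBayes and 3 to 12 with 1 array left out. Between sham hearts 0 calls became 2 without the filter, 1 with trended and robust eBayes and 2 with array weights. Without the 3 arrays there were 2 for the difference of the effects and 5 between TAC hearts. Signal near background limits the dimmer Atp1b1 probe set, Fxyd5 and the dim relatives.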
